A study of Mus musculus with 8 samples.

Results

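The genes described here encode ubiquitin-conjugating enzymes (E2, symbols Ube2a to Ube2z) and ubiquitin-specific proteases (Usp with a number), the largest family of deubiquitinases. They were chosen by symbol alone, as every gene of that naming pattern, pseudogenes aside, to which the authors' annotation assigned at least 1 peak as the closest in any of 6 deposited peak lists. There were 64 such genes, 30 Ube2 and 34 Usp, among 21295 named genes. The peaks come from CUT&Tag for the transcription factor IRF5, in which an antibody (anti-IRF5, abcam ab21689) tethers a transposase that cuts and tags the DNA beside the bound protein. The cells were wild-type mouse bone marrow-derived macrophages stimulated with CpG, the unmethylated DNA sensed by TLR9, or given PBS (control). Each condition had 2 anti-IRF5 libraries, named CpG 1, CpG 2, Control 1 and Control 2. The labels give neither the dose nor the duration of CpG, and the cells were thawed from frozen vials before the assay.

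Ubiquitin is passed from an activating enzyme (E1) to an E2, and an E3 ligase then directs the E2 to a substrate. Deubiquitinases remove or trim the chains. Several of these enzymes act in innate signalling: Ube2n with its partner Ube2v1 builds the signalling chains made downstream of MyD88 and Traf6, the route by which TLR9 activates IRF5, while Ube2l6 attaches and Usp18 removes the ubiquitin-like modifier ISG15.

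The naming pattern is wider than the enzyme classes. Ube2cbp is an E2-binding protein and not an E2, Ube2v1 is an E2 variant without a catalytic cysteine, Usp39 is a splicing factor without protease activity, and Ube2d4 was the only one of the 64 without a protein-coding entry of its symbol in the RefSeq table. That table holds 93 protein-coding symbols of the pattern, and for 30 of them no list had a peak closest to the gene. Among these were Usp7, Usp10, Usp16, Usp21, Usp31, Ube2d1 and Ube2v2, and since the files name a gene only where it is nearest to a peak, promoter calls for them were not analysed here.

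The lists held 13553 and 25851 peaks in CpG 1 and CpG 2, and 29226 and 37315 peaks in Control 1 and Control 2, on the assembled nuclear chromosomes. By the names of the lists, 1 IgG library per condition served as background, so background and condition cannot be told apart. Read depth is unknown. Separate animals or cultures are not named for the libraries, so the p-values measure spread between libraries that may be only technical. Of 9 named macrophage markers 3 and 7 had a promoter peak in CpG 1 and CpG 2, and 7 and 8 in Control 1 and Control 2. Of 15 named markers of 6 other cell types 1 and 2 had one in CpG 1 and CpG 2, and 1 and 3 in Control 1 and Control 2. Of all named genes 10.3% and 22.1% had one in CpG 1 and CpG 2, and 23.9% and 28.4% in Control 1 and Control 2. The marker lists held 10 macrophage markers and 30 of the other cell types, and those nearest to no peak could not be counted.

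The promoter sequences shown next are those of 5 genes described in the following paragraphs, chosen from those whose window holds a motif match. Windows of other genes described there, among them Usp28, Usp32, Ube2k and Usp2, hold no match to the motifs searched and are not shown. Usp38, Ube2d3 and Ube2j2 each have a window with a match that is not shown either. Each run is the 250 bases before a RefSeq start site in GRCm38.p6, read 5′ to 3′ on the gene's strand. The sources used here name no build for the peak files, so windows were matched by symbol, and only genes whose span differed by at most 143 bp between the files and RefSeq are shown. Positions differ between the files and the windows. The files put the start of Usp36 at 118181070, while its window covers 118290245 to 118290494. Gene positions in later paragraphs are those of the files and cannot be set against the window positions. Capitals mark matches, on either strand, to CCGGAAG (the core bound by ETS factors) or to the core of the interferon-stimulated response element, which IRF proteins bind (GAAA, any 2 bases, GAAA). Usp36 had a promoter peak in all 4 libraries (chr11:118290245-118290494, minus strand). Ube2n (chr10:95514912-95515161, plus strand) and Ube2v1 (chr2:167632006-167632255, minus strand) form 1 enzyme complex and had promoter peaks in the same 3 libraries. Usp8 (chr2:126707078-126707327, plus strand) and Usp49 (chr17:47630440-47630689, plus strand) had them in both control libraries and in no CpG library.
Usp36: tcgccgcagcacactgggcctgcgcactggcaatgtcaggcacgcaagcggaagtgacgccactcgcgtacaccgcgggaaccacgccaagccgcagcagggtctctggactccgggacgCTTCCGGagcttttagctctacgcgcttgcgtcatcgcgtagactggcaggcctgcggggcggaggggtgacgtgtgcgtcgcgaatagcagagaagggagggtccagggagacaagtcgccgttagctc
Ube2n: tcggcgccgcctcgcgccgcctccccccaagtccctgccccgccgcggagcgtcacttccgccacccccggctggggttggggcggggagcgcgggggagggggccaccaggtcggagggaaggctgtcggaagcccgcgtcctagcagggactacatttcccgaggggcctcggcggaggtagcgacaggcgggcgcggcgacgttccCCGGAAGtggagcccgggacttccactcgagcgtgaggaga
Ube2v1: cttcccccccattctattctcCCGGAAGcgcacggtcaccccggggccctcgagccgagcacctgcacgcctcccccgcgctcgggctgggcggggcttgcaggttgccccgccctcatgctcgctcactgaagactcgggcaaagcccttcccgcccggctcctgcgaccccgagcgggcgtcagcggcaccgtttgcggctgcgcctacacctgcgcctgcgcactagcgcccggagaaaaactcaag
Usp8: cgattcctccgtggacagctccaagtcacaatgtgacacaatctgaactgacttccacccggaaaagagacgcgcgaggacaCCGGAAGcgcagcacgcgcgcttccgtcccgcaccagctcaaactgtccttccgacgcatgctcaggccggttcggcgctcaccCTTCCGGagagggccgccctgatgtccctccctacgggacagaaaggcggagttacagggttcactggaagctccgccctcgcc
Usp49: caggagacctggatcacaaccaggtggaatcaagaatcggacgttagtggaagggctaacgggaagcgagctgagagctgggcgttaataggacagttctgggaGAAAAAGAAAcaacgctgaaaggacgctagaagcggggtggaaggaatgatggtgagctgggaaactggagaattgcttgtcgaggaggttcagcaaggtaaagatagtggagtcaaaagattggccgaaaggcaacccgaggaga

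Promoter windows in the RefSeq table were found for 48 of the 64 genes, 59 windows in all, since some genes have several start sites. The ETS core was in 12 of these 59 windows, those of Ube2b, Ube2d3, Ube2f, Ube2j2, Ube2n, Ube2v1, Usp24, Usp30, Usp36, Usp38 and Usp8, and in 6.91% of all 32851 windows. The core of the interferon-stimulated response element was in the window of Usp49 alone, and in 2.98% of all windows. TGANTCA, the AP-1 core, was in the window of Usp38 alone, and in 6.75% of all windows. In the windows shown, the ETS core ended 124 bases before the start site in Usp36, 35 in Ube2n, 223 in Ube2v1, and 162 and 78 in Usp8. A match describes letters in these windows and says nothing of which factor is bound there.

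Many of these genes had a promoter peak in CpG 2 and in both control libraries, and few in CpG 1. A promoter peak is one that the authors' annotation puts in the gene's Promoter class. They numbered 6 and 27 in CpG 1 and CpG 2, and 28 and 34 in Control 1 and Control 2. In shares these are 9.38% and 42.2% of the 64 genes in CpG 1 and CpG 2, and 43.8% and 53.1% in Control 1 and Control 2. Of all named genes, 10.3% and 22.1% had one in CpG 1 and CpG 2, and 23.9% and 28.4% in Control 1 and Control 2. The share of Ube2 and Usp genes was thus 0.912 and 1.91 times that of all named genes in CpG 1 and CpG 2, and 1.83 and 1.87 times in Control 1 and Control 2. Many named genes are not protein-coding, and against the 11344 named protein-coding genes (14.1%, 30.5%, 33.2% and 38.8% in the same order) the 63 protein-coding members reached 0.675 and 1.40 times in CpG 1 and CpG 2, and 1.34 and 1.35 times in Control 1 and Control 2. By these shares, which were not tested, the genes lay below both backgrounds in CpG 1 and above both in the other 3 libraries; for CpG 2 this did not hold in lists of equal length, where 9.38% of the 64 genes were called against 11.3% of all named genes.

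**Figure D1:**
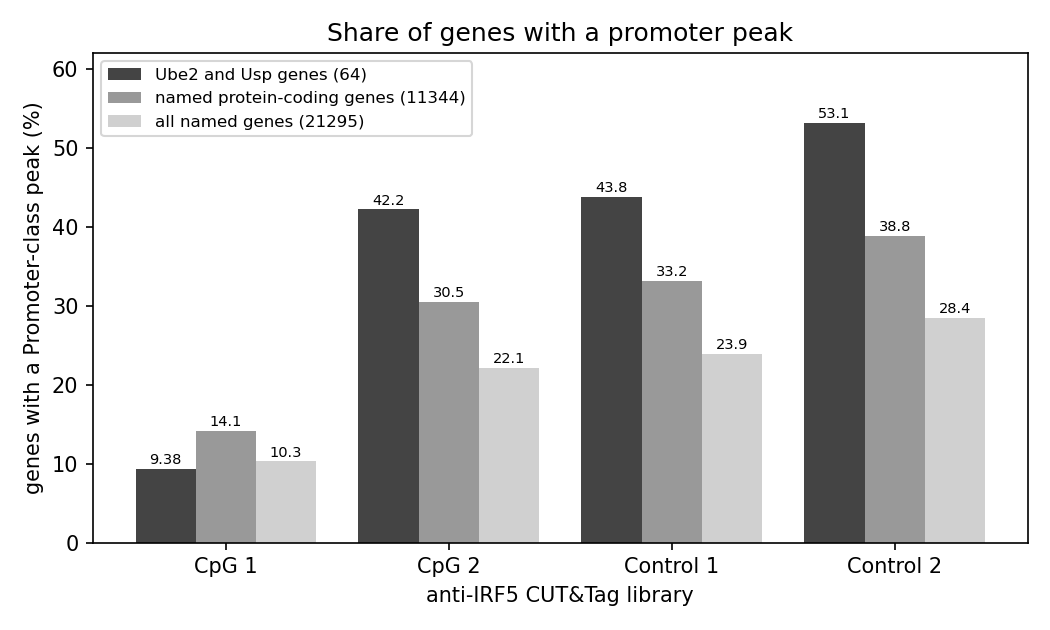
Share of genes with a Promoter-class peak (vertical axis, percent) in each of the 4 anti-IRF5 libraries, for the 64 Ube2 and Usp genes, the 11344 named protein-coding genes and all 21295 named genes; each bar is 1 library and has no error bar. The Ube2 and Usp bar stands above the others in CpG 2, Control 1 and Control 2, at 42.2%, 43.8% and 53.1%, and below them in CpG 1, at 9.38%.

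CpG libraries averaged 16.5 ± 14.8 Ube2 and Usp genes with a promoter peak and control libraries 31.0 ± 4.24 (SD, n = 2 each), a difference of -14.5. The p-value was 0.333 in an exact permutation test (two-sided), and no smaller one can be reached with 4 libraries. CpG 2, at 27, lay next to Control 1, at 28, and the low CpG mean rests on CpG 1. Without CpG 1 the difference was -4. The gap was smaller with lists of equal length. With the 13553 peaks of highest fold enrichment from each library, 6 and 6 genes were called in CpG 1 and CpG 2, against 17 and 8 in Control 1 and Control 2. At that length 10.3% and 11.3% of all named genes were called in CpG 1 and CpG 2, and 11.7% and 11.2% in Control 1 and Control 2, so that only Control 1, where 26.6% of the 64 genes were called, stood well above the background. In lists of that length 2 genes, Ube2s and Usp22, were called in all 4 libraries (2.21% of all named genes) and 1, Usp9x, in both CpG libraries alone (1.50%).

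Among the 30 Ube2 genes 1 and 14 had a promoter peak in CpG 1 and CpG 2 (3.33% and 46.7%), and 12 and 15 in Control 1 and Control 2 (40% and 50%). Among the 34 Usp genes 5 and 13 had one in CpG 1 and CpG 2 (14.7% and 38.2%), and 16 and 19 in Control 1 and Control 2 (47.1% and 55.9%). The share of all named genes was 10.3% and 22.1% in CpG 1 and CpG 2, and 23.9% and 28.4% in Control 1 and Control 2. Which family had the higher share varied between libraries, and the families were not tested against each other, because genes are not replicates. In all 41 of the 64 genes (64.1%) had a promoter peak in at least 1 library, against 39.6% of all named genes and 53.4% of protein-coding ones.

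Every gene with a promoter peak in CpG 1 had one in the other 3 libraries as well. These 6 genes, 9.38% of the 64 against 5.41% of all named genes and 7.77% of protein-coding ones, were Ube2s, Usp22, Usp28, Usp32, Usp36 and Usp9x. Of all named genes called in CpG 1, 52.6% were called in all 4 libraries.

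Ube2s encodes the E2 that lengthens ubiquitin chains on substrates of the anaphase-promoting complex (chromosome 7, 4797544 to 4815589, minus strand). Its promoter peak had a fold enrichment of 4.46 in CpG 1 and 12.5 in CpG 2, and of 10.4 in Control 1 and 21.3 in Control 2. Fold enrichment is the authors' ratio of summit pileup to local background and ranks peaks only within its own list. By that rank the Ube2s peak was at percentile 31.1 and 91.6 in CpG 1 and CpG 2, and 92.7 and 97.6 in Control 1 and Control 2. The summits lay 172 to 206 bp upstream of the gene start. The peak ranked high in every list but that of CpG 1.

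Usp22, the deubiquitinase of the SAGA coactivator complex that acts on histones (chromosome 11, 61042610 to 61065881, minus strand), had a promoter peak at 5.71 and 13.5-fold enrichment in CpG 1 and CpG 2, and at 10.4 and 16.3 in Control 1 and Control 2. Their percentiles were 67.8 and 93.2 in CpG 1 and CpG 2, and 92.9 and 95.4 in Control 1 and Control 2. This peak was not at the start of the gene, since its summit lay 1428 to 1450 bp upstream in all 4 libraries. A second region over the start itself, with summits from 252 bp upstream to 561 bp downstream, was called in all 4 libraries too, at 3.24 and 7.06-fold in CpG 1 and CpG 2, and 5.85 and 8.58-fold in Control 1 and Control 2.

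The peaks of the other 4 genes of this set ranked below that of Usp22 in each of the 4 lists. Usp36, a nucleolar deubiquitinase whose sequence is shown above, had fold enrichments of 4.30 and 5.26 in CpG 1 and CpG 2, and 4.38 and 4.70 in Control 1 and Control 2, with summits 29 to 144 bp upstream of the start. It never passed percentile 31.1 of a list, so its call in all 4 libraries came from low-ranked peaks. Usp32, a membrane-associated deubiquitinase, had 3.40 and 4.18 in CpG 1 and CpG 2, and 6.75 and 6.76 in Control 1 and Control 2. Usp9x, a large X-linked deubiquitinase with many substrates, had 3.23 and 6.66 in CpG 1 and CpG 2, and 3.98 and 4.59 in Control 1 and Control 2. Usp28, a nuclear deubiquitinase known for stabilising Myc, had 2.29 and 4.92 in CpG 1 and CpG 2, and 6.09 and 5.59 in Control 1 and Control 2. These Usp28 values came from different positions. The summits lay 258 and 835 bp upstream in CpG 1 and CpG 2, and 261 and 770 bp upstream in Control 1 and Control 2. The strongest Usp28 peaks of CpG 1 and CpG 2 did not overlap. The Usp28 peak in CpG 1 was at percentile 0.491, at the very bottom of that list. With a −log10 p of at least 10 required of a peak, Ube2s, Usp22 and Usp36 alone kept a promoter peak in all 4 libraries (2.76% of all named genes did). With that threshold 3 of the 64 genes were called in CpG 1, against 5.47% of all named genes, and 0 in both CpG libraries alone, against 0.352%.

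**Figure D2:**
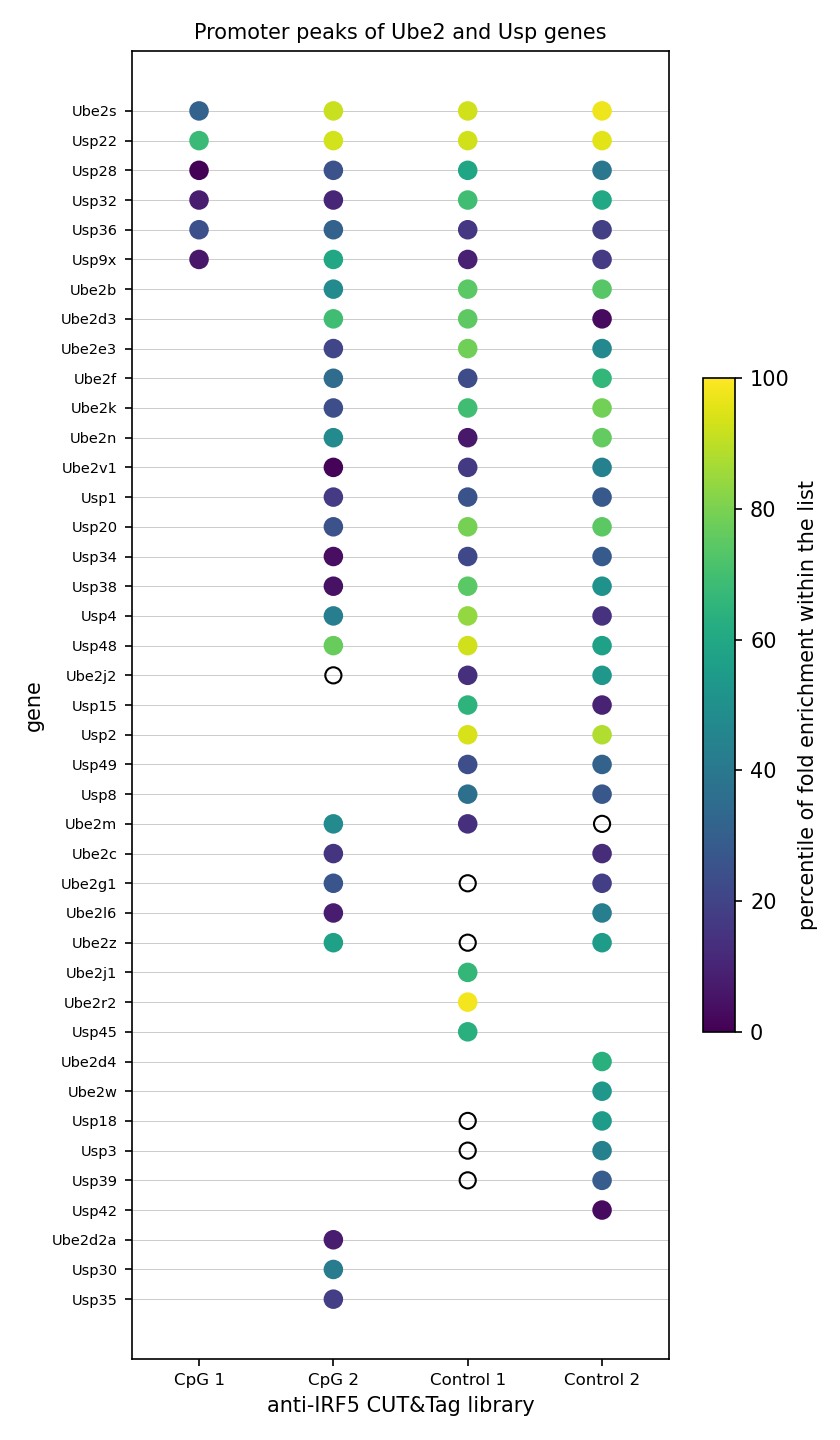
The 41 genes with a promoter peak in at least 1 library (rows) in each of the 4 anti-IRF5 libraries (columns); filled circles are Promoter-class peaks coloured by the percentile of their fold enrichment within the list, and open circles mark an overlapping peak that the annotation puts in another class. The CpG 1 column holds 6 circles, all at genes called in the other 3 libraries, and Ube2s and Usp22 are at percentile 91.6 or above in CpG 2, Control 1 and Control 2.

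A further 13 genes, 20.3% of the 64, had a promoter peak in CpG 2 and both control libraries but not in CpG 1. Of all named genes 7.67% did, and of protein-coding ones 10.7%. They were Ube2b, Ube2d3, Ube2e3, Ube2f, Ube2k, Ube2n, Ube2v1, Usp1, Usp20, Usp34, Usp38, Usp4 and Usp48. CpG 1 had no peak of any class overlapping the promoter peaks of any of the 13. The same count was not made for the other named genes of this pattern, so it cannot be read as a trait of the 13.

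The partners Ube2n and Ube2v1 were both in this set. Ube2n had a fold enrichment of 5.97 in CpG 2, and 3.75 and 8.35 in Control 1 and Control 2, with summits 115 to 222 bp upstream of the start. Ube2v1 was at percentile 1.05 of the list in CpG 2, and at 4.44 and 5.85-fold enrichment in Control 1 and Control 2, with summits 20 to 72 bp upstream. In CpG 2 the Ube2n peak was thus of middle rank, at percentile 47.5, and that of Ube2v1 near the bottom of the list. Control 1 and Control 2 also shared a region inside Ube2n, 15632 to 15690 bp from its start, with fold enrichments of 5.57 and 15.9, where no CpG library had a peak. Another region, 6111 to 6186 bp upstream of Ube2n, was called in CpG 2 and Control 2. Its fold enrichment was 12.2 in CpG 2 (percentile 91.3) and 6.33 in Control 2 (percentile 53.5).

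Other E2 genes of the set were Ube2b, a homologue of the yeast DNA repair gene RAD6, Ube2d3, an E2 that works with many ligases, Ube2f, an E2 for the ubiquitin-like modifier NEDD8, Ube2e3 and Ube2k. Ube2b had fold enrichments of 5.97 in CpG 2, and 7.07 and 7.96 in Control 1 and Control 2. Ube2d3 had 7.44 in CpG 2, and 7.14 and 3.53 in Control 1 and Control 2. Not all of these calls sat at the start of the gene named. The stronger of the promoter peaks of Ube2k lay 1691 to 1836 bp upstream, where the nearest gene was Gm42725 in all 3 libraries. Ube2k also had a promoter region 103 to 209 bp upstream of its start in the same libraries, at 3.70-fold in CpG 2, and 4.28 and 7.21-fold in Control 1 and Control 2. The Ube2d3 summit was 136 to 359 bp into the gene. Ube2e3 had no promoter region common to the 3 libraries. Its peak lay 468 bp upstream in CpG 2, and 524 and 510 bp into the gene in Control 1 and Control 2.

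Among the deubiquitinases of the set, Usp48 had the highest fold enrichment in CpG 2 and in Control 1, at 8.38 in CpG 2, and 10.4 and 6.53 in Control 1 and Control 2. Usp4, which acts on NF-kB signalling proteins, had 5.78 in CpG 2, and 8.21 and 4.44 in Control 1 and Control 2. Usp38, which limits type I interferon signalling through Tbk1, had 3.66 in CpG 2, and 7.07 and 6.15 in Control 1 and Control 2. Usp20 had 4.92 in CpG 2, and 7.57 and 8.13 in Control 1 and Control 2, from a peak 163 to 177 bp upstream that also lies in the promoter of BC005624, the nearest gene in each library. Values for Usp1, a deubiquitinase of the DNA damage response, and for Usp34 were between 3.57 and 5.11 in these 3 libraries.

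A promoter peak in both control libraries and in no CpG library was found at 5 genes, Ube2j2, Usp15, Usp2, Usp49 and Usp8. That is 7.81% of the 64, against 4.30% of all named genes and 6.06% of protein-coding ones. The opposite pattern, both CpG libraries and no control library, held for 0 of the 64 genes, against 0.610% of all named genes and 0.811% of protein-coding ones. At these shares fewer than 1 of 64 genes would be called.

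Usp2, a deubiquitinase with circadian expression in many tissues (chromosome 9, 43978317 to 44006924, plus strand), had the strongest of these peaks. Its fold enrichment was 10.9 in Control 1 and 11.1 in Control 2, at percentiles 93.9 and 88.3, with summits 103 and 28 bp upstream of the start. No CpG library had an overlapping peak. Usp8, which sorts receptors at endosomes and whose window is shown above, had 5.15 and 5.06 in Control 1 and Control 2 at 4 and 26 bp upstream. Usp15 had 6.50 and 4.15 in Control 1 and Control 2 at 158 and 159 bp upstream. Usp49, a histone deubiquitinase, had 4.65 and 5.26 in Control 1 and Control 2, but at 1295 and 1595 bp upstream, outside the window that holds its response element core. At these 3 genes too no CpG peak overlapped.

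Ube2j2, an E2 of the endoplasmic reticulum membrane, is of another kind. It had promoter peaks of 4.24 and 6.33 in Control 1 and Control 2, while CpG 2 had an overlapping peak of 10.5 that the annotation put in the exon and 5′ untranslated region; the libraries differed there in the class of the peak. Membership of the set depended on the rule. With peaks whose summit lies within 1 kb of the nearest gene's start, 6 genes were called in both control libraries alone (5.89% of all named genes were), of which Usp15, Usp2 and Usp8 are shared with the 5. Usp2 was the only one of the 5 also called with lists of equal length and with the stricter threshold, where 4 and 5 genes were (2.07% and 3.46% of all named genes).

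The other genes had other patterns. Promoter peaks in 1 library of each condition were found at Ube2m (CpG 2 and Control 1) and at Ube2c, Ube2g1, Ube2l6 and Ube2z (CpG 2 and Control 2). A single library called Ube2d2a, Usp30 and Usp35 (CpG 2), Ube2j1, Ube2r2 and Usp45 (Control 1), and Ube2d4, Ube2w, Usp18, Usp3, Usp39 and Usp42 (Control 2). The last 23 of the 64 had no promoter peak in any library.

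The authors also deposited 1 list per condition. In these lists 16 of the 64 genes had a promoter peak with CpG (25.0%) and 30 in the control (46.9%), against 15.0% of all named genes with CpG and 24.7% in the control. Both lists called 15 genes (12.0% of all named genes), the control list alone called another 15 (12.7%), and the CpG list alone called 1 (2.96%). That 1 was Usp5, which takes apart free ubiquitin chains, from a peak of 4.65-fold enrichment 574 bp upstream of its start, where Cdca3 is the nearest gene. No library list called a promoter peak at Usp5. Its position fell, however, within a region called in all 4 libraries, which the annotation put in exon and 5′ untranslated sequence of Usp5. Fold enrichments in that region were 2.61 and 6.34 in CpG 1 and CpG 2, and 6.21 and 7.32 in Control 1 and Control 2. The call in the CpG list alone is thus one of peak class and not of a region without control peaks.

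The ISG15 pair did not reach a promoter call in both libraries of a condition. Ube2l6, the E2 for ISG15 (chromosome 2, 84629171 to 84640679, plus strand), had a promoter peak of 3.98 in CpG 2, 16 bp upstream of the start, and none in CpG 1, against one of 5.76 in Control 2, 477 bp upstream, and none in Control 1. An intronic region 177 to 569 bp into Ube2l6 was called in 3 libraries, at 5.79 in CpG 2, and 5.65 and 6.72 in Control 1 and Control 2. Usp18, the ISG15 protease (chromosome 6, 121222864 to 121247876, plus strand), had a promoter peak in Control 2 alone, of 6.44 at 220 bp upstream. A region from 220 bp before to 138 bp after its start held peaks of 5.89 in CpG 2, and 8.17 and 6.44 in Control 1 and Control 2, and the annotation put the Control 1 peak in the exon and 5′ untranslated region. CpG 1 had no peak nearest to either gene.

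The E2 genes for NEDD8 also had peaks near or inside the gene. Ube2m, an E2 for NEDD8, had promoter peaks of 5.97 in CpG 2 and 4.24 in Control 1, in a region with peaks of some class in all 4 libraries. Ube2f had an intronic region 1181 to 1735 bp from its start in all 4 libraries, with fold enrichments of 5.37 and 13.3 in CpG 1 and CpG 2, and 8.83 and 15.5 in Control 1 and Control 2, above those of its promoter peak in each library that had one (5.35 in CpG 2, and 4.59 and 7.17 in Control 1 and Control 2).

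Of the remaining genes to be named in any case, Usp14, which trims chains at the proteasome, and Usp25, an innate signalling deubiquitinase, had no promoter call. Usp14 had a region 15101 to 15366 bp from its annotated start, over exon and 5′ untranslated sequence, with peaks of 4.26 in CpG 2, and 3.63 and 8.94 in Control 1 and Control 2. Usp25 had an intronic region 16808 to 16839 bp from its start in all 4 libraries, at 7.78 and 7.42-fold in CpG 1 and CpG 2, and 9.54 and 8.56-fold in Control 1 and Control 2. A second intronic region of Usp25, 70434 to 70574 bp from the start, was called at 6.48 and 6.36 in CpG 1 and CpG 2, and at 7.94 in Control 2.

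Many promoter peaks of these genes sat close to the start. Distances were not summarised for the promoter peaks of all named genes, so closeness cannot be read as a trait of these genes. Taking the strongest promoter peak of each gene, the median summit was 204 and 172 bp upstream in CpG 1 and CpG 2, and 160 and 167 bp upstream in Control 1 and Control 2. Within 250 bp of the start lay 4 of 6 and 17 of 27 summits in CpG 1 and CpG 2, and 14 of 28 and 24 of 34 in Control 1 and Control 2. Some lay over 1 kb upstream, as at Usp22, Usp34 and Ube2k, and the farthest was that of Usp45 in Control 1, whose Promoter-class peak lay 8980 bp inside the annotated gene. The peaks ranked low in the CpG lists. Their median percentile by fold enrichment was 16.0 and 25.8 in CpG 1 and CpG 2, and 65.3 and 45.3 in Control 1 and Control 2, against 36.9 and 48.6, and 52.8 and 52.2, for the promoter peaks of all named genes in the same libraries. The medians of the Ube2 and Usp genes averaged 20.9 ± 6.97 in CpG libraries and 55.3 ± 14.2 in control libraries (SD, n = 2 each, exact permutation p = 0.333). These ranks come from lists of different lengths.

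**Figure D3:**
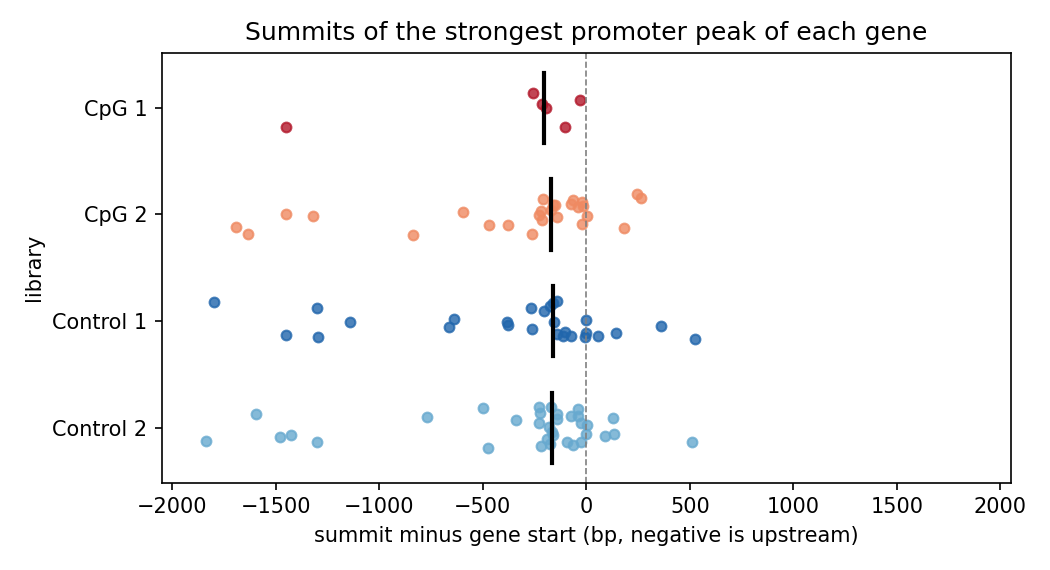
Distance of the summit of each gene's strongest promoter peak from the gene start (horizontal axis, bp, negative is upstream) in the 4 anti-IRF5 libraries (rows); points are genes, black bars the median of all genes in the library, and the vertical scatter within a row has no meaning. The medians lie between 160 and 204 bp upstream in every library, and the Usp45 peak of Control 1, 8980 bp inside the gene, falls outside the axis.

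Counting peaks of every class, 27 and 72 peaks had one of these genes as the nearest in CpG 1 and CpG 2, and 81 and 110 in Control 1 and Control 2. They made up 0.199% and 0.279% of the peaks of CpG 1 and CpG 2, and 0.277% and 0.295% of those of Control 1 and Control 2. The mean share was 0.239% ± 0.0561 in CpG libraries and 0.286% ± 0.0125 in control libraries (SD, n = 2 each, exact permutation p = 0.667), and CpG 2 lay between the control libraries. The genes were included for having a nearest peak in some list. This comparison thus rests on the peaks that chose the genes and decides nothing about the conditions. Promoter-class peaks were 29.6% and 38.9% of these peaks in CpG 1 and CpG 2, and 33.3% and 37.3% in Control 1 and Control 2, against 15.8% and 20.2%, and 19.7% and 18.6%, of all peaks. Intergenic peaks were 11.1% in each of CpG 1 and CpG 2, and 16.0% and 13.6% in Control 1 and Control 2, against 36.8% and 28.6%, and 26.8% and 28.3%, of all peaks. The peaks near Ube2 and Usp genes were thus more often in promoters and less often between genes than peaks at large, by these shares and with no test between the genes. Shares for peaks nearest to protein-coding genes were not computed, so this cannot be read as a trait of these families.

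At least 1 nearest peak was found at 20 and 43 of the 64 genes in CpG 1 and CpG 2, and at 51 and 57 in Control 1 and Control 2, while 43.2% and 61.5% of all named genes had one in CpG 1 and CpG 2, and 63.9% and 72.0% in Control 1 and Control 2. Such peaks were present in all 4 libraries at 16 genes, 25.0% against 24.6% of all named genes, in both control libraries alone at 6, against 8.06%, and in both CpG libraries alone at 0, against 1.61%. These pattern shares lay near those of all named genes. Both sets hold by construction only genes nearest to a peak in some list.

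Usp20, Ube2f, Usp3, Usp36 and Ube2s had the most nearest peaks. Usp20 had 2 and 6 in CpG 1 and CpG 2, and 5 and 10 in Control 1 and Control 2, but 19 of these 23 lay beyond the end of the gene. One of them, 70380 to 70476 bp past the gene start and in an intron of another gene, was called in all 4 libraries, at percentile 18.3 of the list in CpG 1, 7.48-fold in CpG 2, and 7.04 and 6.95-fold in Control 1 and Control 2. Usp3, which removes ubiquitin from histones, had 0 and 2 nearest peaks in CpG 1 and CpG 2, and 5 and 6 in Control 1 and Control 2. Of these 13 peaks 12 lay upstream of the start, and 3 upstream regions, from 7282 to 18640 bp away, were shared by the control libraries without a CpG peak. Usp36 had 1 and 4 in CpG 1 and CpG 2, and 2 and 4 in Control 1 and Control 2. Ube2f had 2 and 3 in CpG 1 and CpG 2, and 5 in each control library. Ube2s had 2 in each library except Control 2, with 4.

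**Figure D4:**
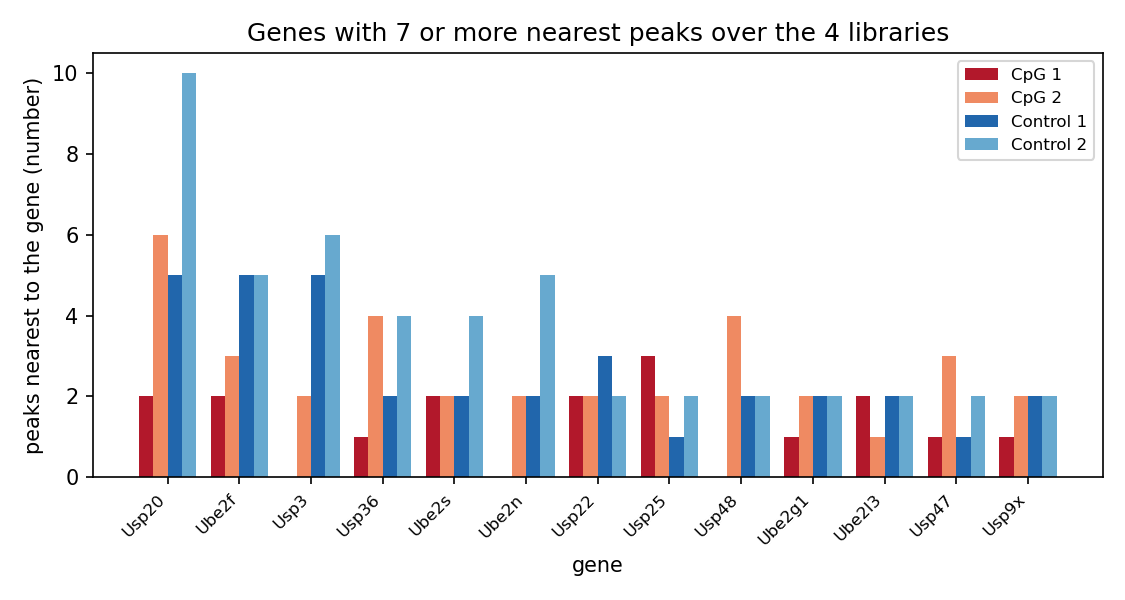
Number of peaks (vertical axis) that have the gene as their nearest gene, for the 13 genes with at least 7 such peaks over the 4 libraries, in CpG 1, CpG 2, Control 1 and Control 2. Usp20 has the most, with 10 in Control 2, and Usp25 is the gene with more peaks in CpG 1, at 3, than in any other library.

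Merging overlapping peaks of the 4 libraries gave 149 regions near these genes. Of these 17, or 11.4%, were called in all 4 libraries and 77 in 1 library, against 10.1% and 55.9% of all 55621 regions. Regions shared by both control libraries alone numbered 19 of 149, or 12.8%, against 8.70% of all regions. The opposite pattern held for 0 of the 149, against 1.15% of all regions. Of the 17 shared regions 9 were never put in the gene's own promoter, among them those at Ube2f, Usp25, Usp20, Usp45, Ube2g1, Ube2e2, Ube2l3 and Usp5. Ube2l3, the E2 used by the ligases parkin and HOIP, had one 20416 to 21776 bp from its start, at 7.47 and 11.6-fold in CpG 1 and CpG 2, and 8.70 and 15.8-fold in Control 1 and Control 2. It lay at or above percentile 86.8 of every list.

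A region 11687 to 11913 bp upstream of Usp45 ranked very differently between lists. Its fold enrichment was 12.1 in CpG 1 and 5.20 in CpG 2, against 2.67 in Control 1 and 3.16 in Control 2. Its percentile was 99.0 in CpG 1 and 29.9 in CpG 2, against 0.438 in Control 1 and 1.33 in Control 2. This region was chosen after its values were seen, and the lists, whose lengths and backgrounds differ, do not allow a test.

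Genes of the same pathway outside these 2 families were listed by role. Of 55 such genes 43 were named, and 9 and 21 had a promoter peak in CpG 1 and CpG 2, and 15 and 23 in Control 1 and Control 2. Of all named genes, 10.3% and 22.1% had one in CpG 1 and CpG 2, and 23.9% and 28.4% in Control 1 and Control 2. In all 4 libraries (5.41% of all named genes) were the ubiquitin gene Ubb, Otud4 and Eif3f, both listed here under deubiquitinases, and the ligase gene Peli1. None of the 6 named E1 genes was called in CpG 1, and of the genes of the ISG15 route Isg15 and the ligase gene Herc6 were called in no library, while Uba7, the E1 for ISG15, was called in CpG 2 alone at 6.76. Ubb had fold enrichments of 4.67 and 13.5 in CpG 1 and CpG 2, and 10.3 and 17.2 in Control 1 and Control 2. Of the NF-kB deubiquitinase genes, Cyld was called at 5.90 in CpG 2, and 5.47 and 8.81 in Control 1 and Control 2, and Tnfaip3 at 6.50 in CpG 1 and 5.25 in Control 2. Josd1 and Otud7b were called in both control libraries alone (4.30% of all named genes), and 0 of the 43 in both CpG libraries alone (0.610%), a share at which fewer than 1 of 43 genes would be called.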

How the data were processed

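Anti-IRF5 CUT&Tag was measured in 4 libraries, and 4 IgG samples of the series have no list of their own. Per the submitters' processing notes, the tools were fastp 0.20.0, BWA 0.7.12, ChIPseeker and MACS2 2.1.0. No source used here names the genome build. Per the file headers, each deposited peak has a pileup signal at its summit, a −log10 p and a fold enrichment, which is the ratio of pileup to local background made by the authors' peak caller. The header cell of the −log10 p column is damaged, and its content was read from the values. Read depth cannot be derived from these lists. Peaks were kept on 21 assembled nuclear chromosomes, and continuation lines of overlong annotation cells were skipped. Promoter calls were taken from the authors' annotation by gene identifier. Fold enrichments were ranked only within their own list, as percentiles. Conditions were compared over libraries with a two-sided exact permutation test over 6 assignments. Peaks that overlapped by at least 1 bp were merged into regions. The genes named are those of the shared and condition-specific promoter patterns, genes named whatever they showed, and those with most peaks. The members, lists and rules were chosen with earlier results of these data known. Python 3.11.15, pandas 2.3.3 and numpy 2.4.6 were used, and counting was checked on simulated lists. Members without a result in the text are counted but not described, and some results are not reported here.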

Additional observations from a re-analysis of the deposited data

How the results depend on the processing

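The difference in genes with a promoter peak kept its sign under every alternative run, at -25 to -4 with 1 library left out, -6.5 with lists of equal length, -15 with a −log10 p of at least 10 and -17.5 with the 1 kb rule. The difference in the share of nearest peaks also kept its sign, from -0.0868 to -0.00745 percentage points with 1 library left out. That share counts the peaks by which the genes were chosen. With the replicate number as a block (replicate block) the values were -14.5 and -0.0471, with an exact p of 0.5 each, the smallest that 2 pairs allow. Same-numbered libraries correlated at 0.0472 in their deviations. With 2 libraries per condition this cannot settle whether the numbers pair the samples. Counts of patterns moved more. Promoter peaks in both CpG libraries alone ranged from 0 to 3 genes with 1 library left out (3 without CpG 1), with 1 for lists of equal length and 1 in the condition lists. Both control libraries alone had 5 to 18 genes (18 without CpG 2, 11 without Control 1, 8 without Control 2), and 15 in the condition lists. All 4 libraries had 6 to 19 genes (19 without CpG 1), 2 with lists of equal length, 3 with the stricter threshold and 15 in the condition lists. Regions of CpG libraries alone ranged from 0 to 17 (17 without CpG 1, 8 without CpG 2), with 3 for lists of equal length. Regions of control libraries alone ranged from 19 to 58 (58 without Control 1), with 6 for lists of equal length and 11 with the stricter threshold. Regions in all libraries ranged from 17 to 41 (41 without CpG 1), with 7 and 10. Leaving out a library relaxes each pattern by construction; the cause of the other moves was not tested. The ratio to all named genes, 1.63 over the 4 libraries, was 1.54 to 1.87 with 1 library left out and 1.19 against protein-coding genes.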
